A study of Rattus norvegicus with 18 samples.

Results

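The miR-29 family was described in small RNA from the gastrocnemius muscle, a calf muscle, of 18 male Brown Norway rats. Its members were taken as the rows of the count table whose name, after the rat prefix rno-, starts with miR-29a, miR-29b or miR-29c, from either arm of the hairpin. By this rule 7 of the 909 entries were members, namely rno-miR-29a-3p, rno-miR-29a-5p, rno-miR-29b-3p, rno-miR-29b-5p, rno-miR-29b-1-5p, rno-miR-29c-3p and rno-miR-29c-5p. Of these, 6 had at least 10 counts and were tested, and rno-miR-29b-1-5p had 0 counts in all 18 libraries, which allows up to 3 counts in each. Young AL rats were fed ad libitum and killed at 6 months (n = 6). Old AL rats were fed ad libitum and killed at 28 months (n = 6). Old CR rats were also killed at 28 months, after caloric restriction from 2 months of age at 55% of the intake of their freely fed controls (n = 6). All rats were fed freely and caged in groups until the age of 2 months, and singly thereafter. No young restricted group was analysed here, so that the comparison of old CR with young AL combines age with diet. Each library came from the muscle of 1 rat, and a bulk sample cannot tell fewer cells of a type from less RNA per cell.

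miRNAs are cut from hairpin precursors, and each arm of a hairpin can give a mature strand, named 5p or 3p by its side. One strand is usually kept by an Argonaute protein and pairs through its seed, near the 5′ end, with target mRNAs, whose translation and stability it lowers. miR-29 is best known for targeting mRNAs of collagens, elastin and other matrix proteins, and it has been linked to fibrosis, to cell senescence and to muscle wasting.

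The mature sequences show which members share a seed and which do not. Targets were not predicted here. They were taken from RefSeq (assembly GRCr8), where all 7 names were matched, and are written 5′ to 3′ with the seed, bases 2 to 8, in capitals.
rno-miR-29a-3p: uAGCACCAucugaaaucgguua
rno-miR-29b-3p: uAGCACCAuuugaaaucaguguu
rno-miR-29c-3p: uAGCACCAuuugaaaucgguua
rno-miR-29a-5p: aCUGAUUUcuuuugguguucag
rno-miR-29b-5p: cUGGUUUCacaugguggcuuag
rno-miR-29c-5p: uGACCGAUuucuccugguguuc
rno-miR-29b-1-5p: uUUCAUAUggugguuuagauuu
The 3 strands of the 3p arm shared the seed AGCACCA, which no other of the 686 known entries matched to a RefSeq sequence carried. The 4 strands of the 5p arm each had a seed found in no other matched entry. Counted from 1 at the 5′ end, miR-29a-3p differed from miR-29c-3p by C10U alone. From miR-29a-3p to miR-29b-3p the differences over the 22 shared bases were C10U, G18A, U21G and A22U, and from miR-29c-3p to miR-29b-3p they were G18A, U21G and A22U. As a result, the letters AGUGUU were found in miR-29b-3p and in no other member, and in 8 of the 686 matched entries (1.17%). UUU at bases 9 to 11 was found in miR-29b-3p and miR-29c-3p, and in 9 of the 686 (1.31%).

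The genes lie in a pair of clusters. Mir29a (chr4:60617955-60618042) and Mir29b1 (chr4:60618334-60618414) lie on the minus strand of chromosome 4, with 291 bases between them. Mir29b2 (chr13:109098831-109098911) and Mir29c (chr13:109099359-109099446) lie on the plus strand of chromosome 13, with 447 bases between them, within the interval of the gene LOC102550527. The hairpins of the miR-29b genes are shown because they give the same 3p strand and different 5p strands. Capitals mark the mature strands.
Mir29b1: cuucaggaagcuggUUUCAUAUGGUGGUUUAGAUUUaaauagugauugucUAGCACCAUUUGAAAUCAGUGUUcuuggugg
Mir29b2: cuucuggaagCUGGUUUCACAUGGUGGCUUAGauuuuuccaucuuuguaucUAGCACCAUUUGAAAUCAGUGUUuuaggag
The count of rno-miR-29b-3p therefore cannot be assigned to either cluster. The 5p strand of Mir29b2 was counted 50 to 222 times in each library, and that of Mir29b1 was not counted.

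Library totals ranged from 34940346 to 83110905 counts. Levels are given as CPM, which expresses a count per fixed library size, after scaling of the libraries by the trimmed mean of M values (TMM), with factors from 0.656 in old AL replicate 11 to 2.08 in old AL replicate 7. An entry was called where edgeR gave an adjusted p no higher than 0.05 with a change of 1.5-fold or more. The muscle markers summed to 72647 to 186544 CPM in every library, so that the defining miRNAs of the labelled tissue were present in all. The liver miRNA rno-miR-122-5p was at 0.549 to 39.1 CPM in young AL, 49.2 to 770 CPM in old AL and 101 to 185 CPM in old CR, so that it separated young from old. The sum of 2 neural markers was 6.88 to 20.5, 11.0 to 33.6 and 18.5 to 155 CPM, and that of 3 fibroblast markers, which overlapped between all groups, was 1035 to 1633, 1157 to 1628 and 1130 to 2226 CPM. Epithelial markers summed to 21.7 to 69.6, 41.6 to 221 and 31.1 to 1273 CPM, leukocyte markers to 123 to 170, 109 to 606 and 114 to 238 CPM, and endothelial markers to 4713 to 8048, 3818 to 7273 and 3961 to 6808 CPM in the same order of groups. The groups overlapped in each of these lists, but the highest epithelial sums and the highest leukocyte sums were in old libraries. Smooth muscle and erythroid markers overlapped between all groups. The part of these markers in the results below was not tested.

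No member of the miR-29 family was called by edgeR in any of the 3 comparisons. Of the 6 members tested, 0 were called in old AL against young AL, where 3.28% of all entries were called (24 of 732). Between old CR and young AL 0 of 6 were called, against 9.32% of all entries (68 of 730). Between old CR and old AL 0 of 6 were called, against 0.272% of all entries (2 of 736). At an unadjusted p under 0.05 there was 1 member in each comparison, rno-miR-29b-3p in both comparisons with young AL and rno-miR-29c-5p in old CR against old AL. Over all entries 171, 186 and 88 were under 0.05 in these comparisons. DESeq2, which the authors used with the same thresholds, was run here as an alternative. It called 1 member, rno-miR-29b-3p, in each comparison with young AL and 0 in old CR against old AL. The paper lists miR-29b-3p among its differentially expressed miRNAs that were also reported in ageing mouse muscle. Over all entries DESeq2 called 11.5% (84 of 732), 14.9% (109 of 730) and 2.58% (19 of 736) in the 3 comparisons.

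The 3p strands made up nearly all of the family. They held 97.1 to 98.3% of its counts in young AL, 98.0 to 98.5% in old AL and 97.3 to 98.2% in old CR. rno-miR-29a-3p alone held 94.9 to 97.2% of the 3p counts over the 18 libraries. The whole family took 0.0968 to 0.245% of a library. Adapters are ligated to some small RNAs more readily than to others, so that the order of levels between miRNAs is an order of counts.

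rno-miR-29a-3p, the main strand of the family, ranged from 875 to 1365 CPM among the young AL libraries, with a median of 1123. The old AL libraries ranged from 1125 to 1583 CPM (median 1369), and the old CR libraries from 1081 to 1504 CPM (median 1371). It ranked 39th among all entries by mean level in young AL and 36th in both old groups. The old libraries lay higher on the whole but overlapped with the young, since 3 of 6 old AL and 3 of 6 old CR libraries were above every young one. The means were 1119 ± 189, 1362 ± 158 and 1332 ± 164 CPM (SD, n = 6 each). The log2 fold change was 0.28 in old AL against young AL (SE 0.140, 95% interval -0.02 to 0.59, edgeR adjusted p = 0.243). In old CR against young AL it was 0.24 (SE 0.132, adjusted p = 0.266 in edgeR), and in old CR against old AL it was -0.03, with a 95% interval from -0.30 to 0.24.

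rno-miR-29b-3p, which shares the seed and differs at the 3′ end, had the largest fold changes of the 6 members in both comparisons with young AL. The young AL libraries ranged from 16.2 to 33.5 CPM with a median of 20.9. Those of old AL ranged from 21.6 to 47.3 CPM (median 36.3), and those of old CR from 25.3 to 51.4 CPM (median 36.4). In old AL 4 of 6 libraries lay above every young library, and in old CR 5 of 6, with old AL replicate 7 and old CR replicate 15 the lowest of their groups. The means were 22.7 ± 6.87, 36.2 ± 9.45 and 39.2 ± 9.92 CPM (SD, n = 6 each).

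In old AL against young AL the fold of rno-miR-29b-3p was 1.62 (95% interval 1.13 to 2.32), a log2 fold change of 0.69 (SE 0.240) with an edgeR p of 0.0136 and an adjusted p of 0.126. In old CR against young AL the fold was 1.72 (95% interval 1.22 to 2.44), a log2 fold change of 0.78 (SE 0.230) with an edgeR p of 0.00512 and an adjusted p of 0.0512. The adjusted p of the first thus missed the threshold, and that of the second lay just above it. The 2 comparisons share the 6 young libraries and are not independent of each other. In DESeq2 the log2 fold change was 0.67 with an adjusted p of 0.0454 in the first and 0.77 with an adjusted p of 0.00812 in the second. Over all alternatives the adjusted p ranged from 0.0454 to 0.263 in the first and from 0.00812 to 0.150 in the second. Between the old groups the values overlapped, with a log2 fold change of 0.12 in old CR against old AL and a 95% interval from -0.39 to 0.62 (edgeR adjusted p = 0.911). Its direction turned with library totals as the scaling, to -0.06.

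The call of rno-miR-29b-3p in old CR against young AL hung on the setting. It was called in edgeR without young AL replicate 4, the highest of its group, at a log2 fold change of 0.93 and an adjusted p of 0.0282, in a fit that called 6.64% of all entries. It was also called without old CR replicate 15, the lowest of its group, at 0.90 and an edgeR adjusted p of 0.0214, in a fit that called 8.18%. With 1 fit over the 3 groups, which called 13.2% of all entries, and among known miRNAs alone, of which 15.6% were called, it was called as well. In the other 10 fits that left out a library it was not called, and over all 12 such fits the log2 fold change stayed between 0.68 and 0.93.

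rno-miR-29c-3p, which differs from miR-29a-3p by a single base, ranged from 11.3 to 23.6 CPM among the young AL libraries, with a median of 16.4. Those of old AL ran from 13.7 to 26.3 CPM (median 22.4), and those of old CR from 13.1 to 27.5 CPM (median 21.7). The groups overlapped, with 2 of 6 libraries of each old group above every young one. The log2 fold change was 0.38 in old AL against young AL (SE 0.233, edgeR adjusted p = 0.350) and 0.34 in old CR against young AL (SE 0.233, edgeR adjusted p = 0.424). Between the old groups it was -0.02, with a 95% interval from -0.46 to 0.43.

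**Figure D1:**
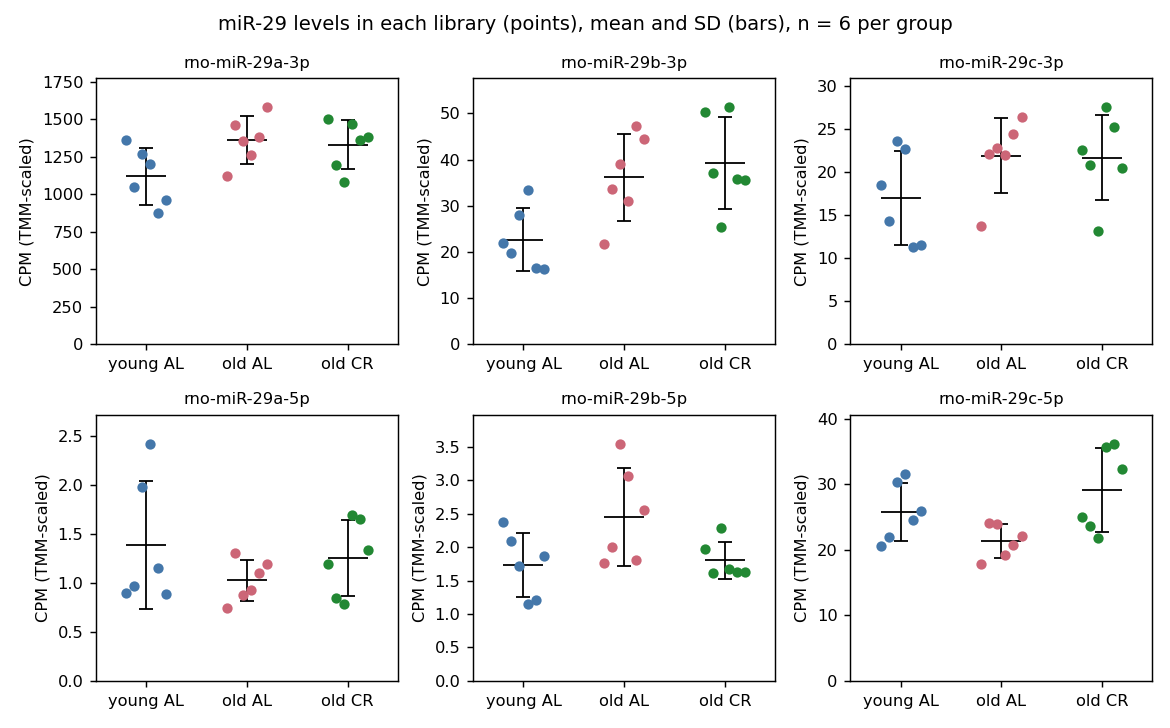
Levels of the 6 counted miR-29 entries in CPM after TMM scaling (y axis, linear, from 0) in young AL, old AL and old CR (x axis). Points are libraries, and bars are the mean and SD over 6. The old libraries of rno-miR-29b-3p lie mostly above the young ones (means 36.2 and 39.2 against 22.7 CPM), and the groups overlap in every entry shown.

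The 5p strands, which carry other seeds, were not called in any comparison. rno-miR-29c-5p was the most abundant of them, at 20.6 to 31.6 CPM in young AL (median 25.2). The old AL libraries ran from 17.8 to 24.1 CPM (median 21.4) and the old CR libraries from 21.8 to 36.2 CPM (median 28.7). In 4 of 6 old CR libraries it lay above every old AL library. The log2 fold change in old CR against old AL was 0.45 (SE 0.164, 95% interval 0.09 to 0.81), with an edgeR p of 0.0173 and an adjusted p of 0.392. Against young AL it was -0.27 in old AL (edgeR adjusted p = 0.272) and 0.16 in old CR (edgeR adjusted p = 0.646).

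rno-miR-29b-5p, the 5p strand of Mir29b2, was counted 50 to 222 times in a library. It ranged from 1.15 to 2.37 CPM among the young AL libraries, from 1.76 to 3.55 CPM among the old AL and from 1.61 to 2.29 CPM among the old CR, with medians of 1.79, 2.28 and 1.65. The highest values were in old AL replicates 9 and 10, and 4 of 6 old CR libraries lay below every old AL library. The log2 fold change was 0.50 in old AL against young AL (SE 0.265, edgeR adjusted p = 0.270), 0.05 in old CR against young AL (adjusted p = 0.938) and -0.44 in old CR against old AL (adjusted p = 0.414). That of old CR against young AL turned negative in several settings.

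rno-miR-29a-5p, the strand opposite the main one in its hairpin, was the least abundant member counted, with 43 to 113 counts in a library. It ranged from 0.888 to 2.42 CPM among the young AL libraries, from 0.747 to 1.31 CPM among the old AL and from 0.782 to 1.69 CPM among the old CR, with medians of 1.06, 1.01 and 1.26. Young AL replicates 3 and 4 held the highest values, and the groups overlapped. The log2 fold changes were -0.42, -0.16 and 0.28 in old AL against young AL, old CR against young AL and old CR against old AL, with edgeR adjusted p from 0.396 to 0.831.

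**Figure D2:**
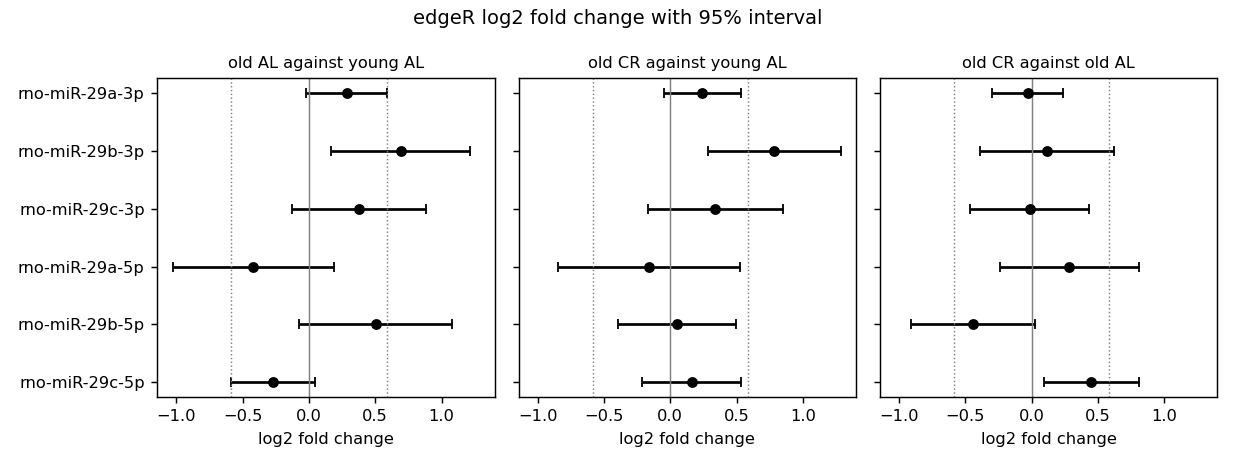
Log2 fold changes from edgeR (x axis) of the 6 entries (y axis) in the 3 comparisons. Points are estimates, bars 95% intervals, and dotted lines mark a fold change of 1.5 in either direction. The intervals of rno-miR-29b-3p lie above 0 in both comparisons with young AL, and that of rno-miR-29c-5p lies above 0 in old CR against old AL, before adjustment over all entries.

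The order of the 3p strands was the same in every library, with rno-miR-29a-3p above rno-miR-29b-3p, and rno-miR-29b-3p above rno-miR-29c-3p, in 18 of 18. The place of rno-miR-29c-5p differed. It was above rno-miR-29b-3p in 4 of 6 young AL libraries, in 0 of 6 old AL and in 1 of 6 old CR. It was above rno-miR-29c-3p in 6, 3 and 6 of 6 libraries of young AL, old AL and old CR. rno-miR-29b-5p was above rno-miR-29a-5p in 14 of 18 libraries, so that the order of these neighbours did not hold in all.

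Ratios of members within a library do not depend on how libraries are scaled, and 6 were compared between the groups on the log2 scale. Each difference was tested with a two-sided exact permutation test over all arrangements of the 12 libraries, and p-values were adjusted over the 18 tests by the method of Benjamini and Hochberg (BH). The smallest p the design allows is 0.00216. Of the 18 tests, 5 passed at 0.05, all with a BH p of 0.0468. The ratios share members and the comparisons share groups, so that these 5 are not independent of each other.

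The ratio of rno-miR-29c-3p to rno-miR-29b-3p was lower in both old groups. It ranged from -0.56 to -0.25 among the young AL libraries, from -0.96 to -0.50 among the old AL and down to -1.15 among the old CR, of which the highest was at -0.50. In both old groups 5 of 6 libraries lay below every young library, the exceptions being old AL replicate 10 and old CR replicate 17. The mean was lower than in young AL by 0.28 in old AL, from -0.43 ± 0.14 to -0.71 ± 0.16 (SD, n = 6; exact permutation p = 0.00649). It was -0.85 ± 0.21 in old CR (SD, n = 6; exact permutation p = 0.00649), a difference of -0.43. These strands share the seed and differ at 3 of the 22 bases compared.

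The ratio of rno-miR-29a-3p to rno-miR-29b-3p of old CR also lay under that of young AL, with means of 5.12 ± 0.23 and 5.66 ± 0.29 (SD, n = 6; exact permutation p = 0.0130, BH 0.0468), a difference of -0.54. In old AL the mean was 5.27 ± 0.29, a difference from young AL of -0.39 that did not pass the adjustment (exact permutation p = 0.0390, BH 0.100). In each old group 3 of 6 libraries lay below every young one. For rno-miR-29a-3p to rno-miR-29c-3p the differences were -0.11, -0.12 and -0.01 in the 3 comparisons, with exact permutation p between 0.418 and 0.935.

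The ratio of the arms of Mir29c differed between old AL and both other groups. The log2 ratio of rno-miR-29c-3p to rno-miR-29c-5p ranged from -1.17 to -0.15 among the young AL libraries, from -0.38 to 0.26 among the old AL and from -0.73 to -0.15 among the old CR. In 5 of 6 old AL libraries it lay above every young library, and old AL replicate 7 was the exception. The mean was 0.01 ± 0.25 in old AL against -0.65 ± 0.41 in young AL, a difference of 0.67 (SD, n = 6; exact permutation p = 0.00866). In old CR the mean was -0.44 ± 0.24, a difference from old AL of -0.45 (SD, n = 6; exact permutation p = 0.0130). The difference of old CR from young AL was 0.21 (exact permutation p = 0.307).

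For the arms of Mir29a the difference between old AL and young AL was 0.63, which did not pass the adjustment (exact permutation p = 0.0260, BH 0.0779). For rno-miR-29b-3p to rno-miR-29b-5p it was 0.19 (exact permutation p = 0.591), and old CR was higher than young AL by 0.71 (exact permutation p = 0.0671, BH 0.151). All 5 ratio differences that passed lay close to the threshold. With medians in place of means each had a BH p of 0.0701, and in 8 to 11 of the 12 fits without 1 library they no longer passed, as given for each ratio in the closing section.

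**Figure D3:**
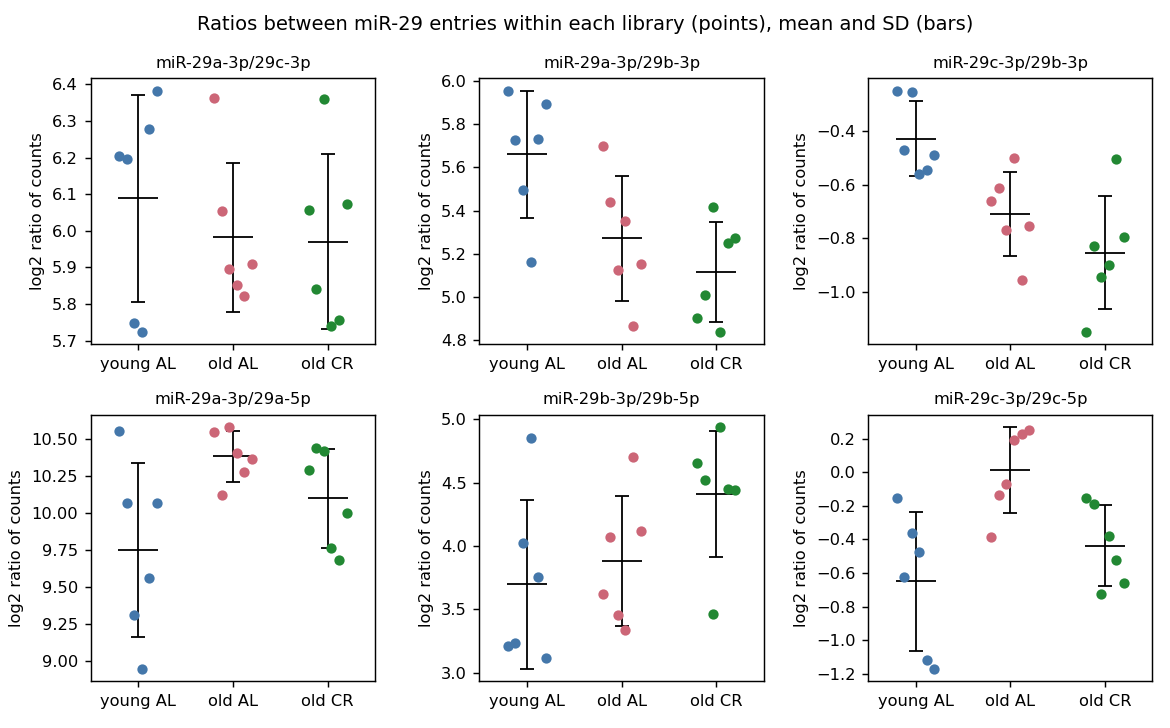
Log2 ratios of counts between miR-29 entries within a library (y axis) in young AL, old AL and old CR (x axis). Points are libraries, and bars are the mean and SD over 6. For miR-29c-3p to miR-29b-3p, 5 of 6 libraries of each old group lie below all young ones, and for miR-29c-3p to miR-29c-5p, 5 of 6 old AL libraries lie above all young ones.

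The 3p strands varied together across libraries. Over the 18 libraries the log2 CPM of rno-miR-29a-3p and rno-miR-29b-3p had a Pearson r of 0.855 and a Spearman rho of 0.818 (permutation p = 1e-05 and 5e-05). For rno-miR-29a-3p and rno-miR-29c-3p r was 0.890 and rho 0.759 (permutation p = 1e-05 and 0.00045). For rno-miR-29b-3p and rno-miR-29c-3p r was 0.891 and rho 0.820 (permutation p = 1e-05 and 6e-05). Of these, 1e-05 is the smallest p that the permutations can give. Adjusted over the 6 pairs, the BH p of r was 2e-05 for each, and those of rho were 0.00018, 0.0009 and 0.00018. Without the 2 libraries farthest from the median, young AL replicates 5 and 6, r was 0.752, 0.799 and 0.812. Within the groups of 6 libraries r was between 0.735 and 0.956. These values share the scaling factor of each library.

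The arms of Mir29a and of Mir29c, and rno-miR-29b-3p with rno-miR-29b-5p, were compared in the same way. Between them r was 0.308 for Mir29a, 0.147 for miR-29b and 0.386 for Mir29c, and rho was 0.461, 0.015 and 0.354 (permutation p of r = 0.212, 0.562 and 0.115, BH 0.254, 0.562 and 0.173; of rho BH 0.0826, 0.955 and 0.180). Whether these values differed from those among the 3p strands was not tested. Without young AL replicates 5 and 6 r was 0.319, -0.07 and 0.541. Within young AL, old AL and old CR, r of the Mir29a arms was 0.343, 0.882 and 0.821. For the Mir29c arms it was 0.483, 0.660 and 0.769, and for the miR-29b pair -0.259, 0.239 and -0.416. The low values over all 18 libraries thus did not hold within each group for Mir29a and Mir29c. The miR-29b pair is not that of 1 hairpin, since its 3p strand can come from either miR-29b gene.

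Among the other 379 entries with a mean of at least 1 CPM, those most like each 3p strand by Spearman rho over the 18 libraries were listed as a description. For rno-miR-29b-3p they were rno-miR-3587 (rho 1), rno-miR-582-3p (0.868) and rno-miR-3556b (0.835). For rno-miR-29c-3p they were rno-miR-3556b (0.992), rno-miR-3068-5p (0.864) and rno-miR-3587 (0.820). For rno-miR-29a-3p they were rno-miR-3587 (0.818), rno-miR-3556b (0.810) and rno-miR-106b-5p (0.756). rno-miR-3587 and rno-miR-3556b thus stood in all 3 lists.

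These entries lie on the opposite strand of the miR-29 genes, and they are shown because their letters are the reverse complement of the 3p strands. Capitals mark the stretch that pairs with the seed.
rno-miR-3556a: cgauuucagaUGGUGCUa
rno-miR-3587: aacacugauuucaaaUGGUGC
rno-miR-3556b: accgauuucaaaUGGUGCUa
rno-miR-3556a, on the plus strand of chromosome 4, is the reverse complement of bases 1 to 18 of miR-29a-3p. rno-miR-3587, also on the plus strand of chromosome 4, is that of bases 3 to 23 of miR-29b-3p. rno-miR-3556b, on the minus strand of chromosome 13, is that of bases 1 to 20 of miR-29c-3p.

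In all 18 libraries the counts of rno-miR-3587 and rno-miR-3556b were within 10% of those of their 3p strands. For rno-miR-3556a this held in 0 libraries. rno-miR-3587 had 98.8 to 99.9% of the count of rno-miR-29b-3p, and rno-miR-3556b had 95.4 to 100.3% of that of rno-miR-29c-3p. rno-miR-3556a had 8.97 to 14.9% of the count of rno-miR-29a-3p (median 10.3%). The library kit is described as strand-specific, but the strand setting of the counting is not given in the sources used here. Reads of miR-29b-3p or miR-29c-3p and of the opposite strand therefore cannot be told apart in these counts. How far this holds for miR-29a-3p, whose opposite entry had far fewer counts, was not tested.

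The tests of rno-miR-3587 and rno-miR-3556b gave nearly the values of their partners. rno-miR-3587 had log2 fold changes of 0.69 in old AL and 0.79 in old CR against young AL, with edgeR adjusted p of 0.126 and 0.0503. rno-miR-3556b had 0.38 and 0.35, with edgeR adjusted p of 0.332 and 0.393. rno-miR-3556a was at 108 ± 16.3, 140 ± 17.2 and 152 ± 16.6 CPM in young AL, old AL and old CR (SD, n = 6 each). Its log2 fold change in old CR against young AL was 0.49, which had an edgeR adjusted p of 0.0292 but lay under the fold change of 1.5 asked for a call. This value was larger than the 0.24 of its partner rno-miR-29a-3p, and whether they differ was not tested.

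**Figure D4:**
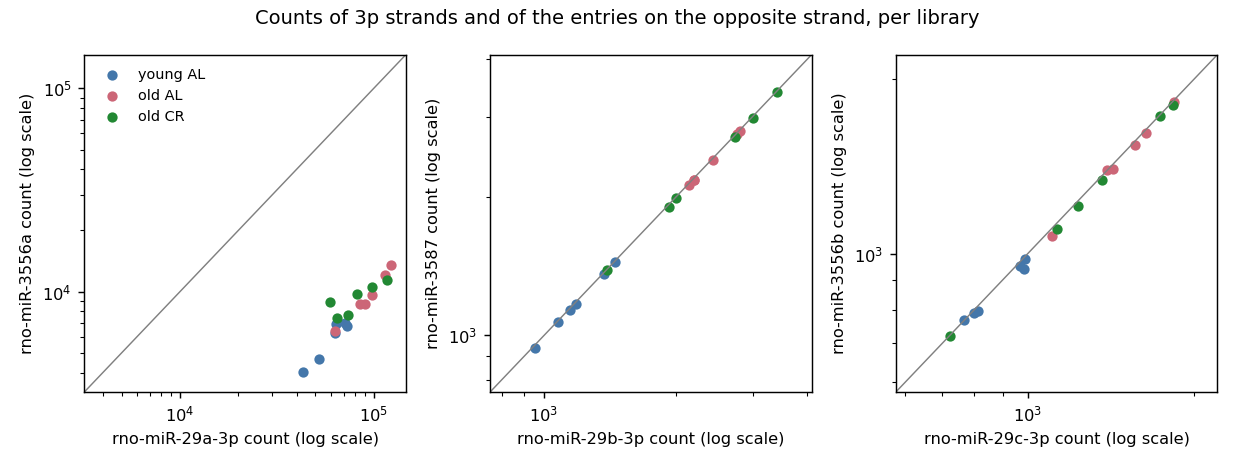
Counts of the entries on the opposite strand (y axis, log scale) against counts of the miR-29 3p strands (x axis, log scale) in the 18 libraries. The grey line marks equal counts. rno-miR-3587 and rno-miR-3556b lie on or near the line, while rno-miR-3556a lies below it, at 8.97 to 14.9% of rno-miR-29a-3p.

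Other miRNAs linked to the processes that miR-29 is known for were read from the same fits. Of 20 entries linked to fibrosis and TGF-beta signalling, which drives matrix production, 0 were called in any comparison, and 17, 17 and 14 had positive log2 fold changes in old AL against young AL, old CR against young AL and old CR against old AL. Over all entries 414 of 732, 407 of 730 and 373 of 736 had positive values, and the shares called were 3.28%, 9.32% and 0.272%. The median log2 fold changes of the list were 0.14, 0.20 and 0.16, beside 0.06, 0.08 and 0.01 over all entries tested. Of 21 entries linked to senescence, rno-miR-22-3p, an abundant miRNA of striated muscle, fell in old AL against young AL (1381 ± 140 against 2071 ± 447 CPM, log2 fold change -0.59, edgeR adjusted p = 0.0353), and rno-miR-494-3p fell in old CR against young AL (1.82 ± 0.442 against 3.53 ± 1.14 CPM, log2 fold change -0.97, edgeR adjusted p = 0.0279). Of 21 entries linked to muscle differentiation and atrophy, rno-miR-431, which promotes regeneration of muscle, fell in old CR against young AL (0.499 ± 0.0908 against 1.06 ± 0.249 CPM, log2 fold change -1.09, edgeR adjusted p = 0.00854). No other entry of these lists was called. The median log2 fold changes were -0.20, -0.02 and 0.04 for the senescence list and 0.09, 0.13 and -0.17 for the muscle list. Positive values were held by 9, 10 and 13 of 21 entries of the senescence list and by 15, 12 and 7 of 21 of the muscle list. Some entries are in more than 1 list.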

How the data were processed

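Small RNA libraries were made from gastrocnemius muscle of 18 rats in 3 groups of 6. The authors trimmed reads with Cutadapt and Sickle, used miRDeep2 to identify miRNAs and featureCounts to count them, and deposited raw counts per entry and library for 763 known miRNAs along with 146 predicted ones. The submitters' processing notes name cutadapt 1.2.1, Bowtie2 2.4.0 and the build Rnor_6.0. The strand setting, the treatment of reads that match several entries and the counting of read mates are not stated in the sources used here. A miR-29 count may thus hold reads of the opposite strand or of a near-identical member, and reads may not be independent molecules. Sequences and coordinates are from RefSeq GRCr8 and were not converted. Of the columns of the table, 0 were left unused.

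Counts were compared with edgeR 4.0.16 in R 4.3.3 (TMM scaling, robust quasi-likelihood test, BH adjustment over all tested entries) for every pair of groups on its own 12 libraries, with entries of 10 counts or more in them. Calls needed an adjusted p no higher than 0.05 with a change of 1.5-fold or more. Ratios were log2 of counts plus 0.5, tested by exact permutation, and correlations by 100000 permutations (scipy 1.17.1). Fits were tested on simulated data. Totals ranged from 34940346 to 83110905 counts, and limits for entries at 0 cover counting error only. The main edgeR and ratio p-values judge a group difference against the spread among the 12 rats compared. Those of the correlations use all 18 rats. Alternatives were other scalings, filters and fits, DESeq2 1.42.0, an added count of 1 and medians for the ratios, and leaving out libraries. The named entries were all members, the 3 entries most like each 3p strand by Spearman rho, entries that share counts, strand or seed with a member, and called entries of the lists. The members and lists were chosen with earlier results of these data known.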

Additional observations from a re-analysis of the deposited data

Results flagged for a closer look

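The 36 sets of 6 values (log2 CPM and log2 ratios of members in each group) were screened for a lowest or highest library that stood apart, by Dixon's 95% critical value for the gap over the range. By chance about 1 in 20 such sets would be picked out, and 2 were. rno-miR-29c-3p in old AL replicate 7 was at 13.7 CPM, below the other old AL libraries, with a gap over range of 0.719 on the log2 scale. This library had the largest TMM factor, 2.08. The log2 ratio of rno-miR-29b-3p to rno-miR-29b-5p in old CR replicate 15 was 3.46, below the other old CR libraries, with a gap over range of 0.664. That library had the fewest counts of rno-miR-29b-3p in its group, 1393. The part of the scaling in the first value was not tested, and the second, a ratio within a library, does not depend on it.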

How the results depend on the processing

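Among the log2 fold changes of members, 428 alternative values kept their direction and side of the threshold, 16 turned and 6 newly passed. rno-miR-29b-3p passed the threshold in both comparisons with young AL in DESeq2, and in old CR against young AL also with 1 fit over the 3 groups (adjusted p = 0.0353 in edgeR, 96 of 730 entries called) and with known miRNAs alone (0.0241, 94 of 603 called), so that 1 member was called. Without 1 library 0 to 1 members were called there, and the log2 fold change ranged from 0.68 to 0.93. Leaving out the 3 opposite-strand entries, added after seeing the data, gave no new call of a member. Nor did leaving out young AL replicates 1 and 2, whose library numbers in the labels are out of sequence. With 0 members called in the main fits, no call could be lost. Without both replicates the edgeR adjusted p of rno-miR-29b-3p rose to 0.263 in old AL and 0.131 in old CR against young AL. Its log2 fold changes were then 0.65 and 0.75. The ratios were not tested without both replicates.

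Turned values were all uncalled. For rno-miR-29b-5p in old CR against young AL they were -0.061 (upper-quartile scaling), -0.052 (library totals), -0.026 (totals without the miR-1 family) and -0.021 (filterByExpr), with -0.044 to 0.14 without 1 library. For rno-miR-29b-3p in old CR against old AL they were -0.020 (upper quartile) and -0.057 (totals), with -0.0035 to 0.22 without 1 library. Without 1 library rno-miR-29a-5p ranged from -0.28 to 0.072 in old CR against young AL, and in old CR against old AL rno-miR-29c-3p ranged from -0.13 to 0.095 and rno-miR-29a-3p from -0.092 to 0.022.

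Of the ratios, the 5 that passed had differences of medians of -0.60 (miR-29a-3p to miR-29b-3p, old CR against young AL), -0.23 and -0.38 (miR-29c-3p to miR-29b-3p, old AL and old CR against young AL), 0.61 and -0.51 (miR-29c-3p to miR-29c-5p, old AL against young AL and old CR against old AL), each with an exact permutation BH p of 0.0701. Without 1 library, in the same order, they ranged from -0.64 to -0.49, -0.32 to -0.23, -0.50 to -0.37, 0.56 to 0.77 and -0.53 to -0.39, with BH p from 0.0390 to at most 0.101. Each passed in 1 to 4 of its 12 fits without 1 library. Without 1 library miR-29a-3p to miR-29a-5p (0.47 to 0.79) and miR-29a-3p to miR-29b-3p (-0.49 to -0.31) in old AL against young AL and miR-29b-3p to miR-29b-5p in old CR against young AL (0.60 to 0.94) reached a BH p of 0.0390. The difference of miR-29a-3p to miR-29c-3p in old CR against old AL turned to 0.047 with medians and ranged from -0.090 to 0.064 without 1 library.

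The number of entries called depended on the setting. In old AL against young AL the 24 became 0 with totals, 3 with totals without the miR-1 family, 3 scaled to rno-miR-101a-3p, 37 with filterByExpr, 38 with 1 fit over the 3 groups, 53 with known miRNAs alone, 84 in DESeq2 and 9 to 20 without 1 library. In old CR against young AL the 68 became 22 scaled to rno-miR-101a-3p, 109 in DESeq2 and 45 to 67 without 1 library. In old CR against old AL the 2 became 0 with upper-quartile scaling, both totals, rno-miR-101a-3p, no robust estimation or known miRNAs alone, 19 in DESeq2, 1 without old AL replicate 7 and old CR replicate 15 together (added after seeing the data), and 0 to 3 without 1 library. With library totals, the log2 fold changes of the entries moved by a median of 0.15, -0.12 and -0.26 in the 3 comparisons. The cause of these changes was not tested. rno-miR-29a-5p and rno-miR-29b-5p, with 43 to 222 counts in a library, are the members whose precision the depth limits most.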
